A study of Mus musculus with 2 samples.

Results

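Chaperones are the proteins that help other proteins fold, keep them from clumping and pass damaged ones on for repair or destruction. The genes described here are those typed as protein-coding whose mouse symbol begins with Hsp (Hspg2 left out) or Dnaj, together with the subunits of the cytosolic chaperonin ring and Cryab. Annotation of the 2 gene tables gave 81 such genes, of 21474 protein-coding genes and 43346 mouse genes in all. The chaperonin subunit Cct6a is typed as a processed transcript in GENCODE M21, so the rule leaves it out and its values are given apart.

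The RNA came from heart tissue of newborn B6NCrl mice at postnatal day 0, with sex not collected. The input of each library was 13 pg of total RNA longer than 200 nt, the amount given as 1 cell-equivalent, so that the RNA of heart tissue was sampled at the input of a cell. Replicate 1 is the heart of pup 1 and replicate 2 the heart of pup 3, and both carry the same donor identifier. There is no treatment, control or second group, so the question is how abundant each chaperone transcript was and how far the libraries differed from each other. With 2 libraries no exact permutation test can pass a threshold (its smallest two-sided p is 0.5), so everything below is a description. Levels are TPM, transcripts per 1000000 transcripts of mouse genes, which corrects for gene length. The tables held 39671900 expected counts on mouse genes in replicate 1 and 32751900 in replicate 2. A count of 0 allows up to 3 counts, which is 0.0756 counts per 1000000 in replicate 1 and 0.0916 in replicate 2, by counting error alone.

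In the textbook account, HSP70 proteins bind short stretches of unfolded protein in cycles of ATP use. J proteins, encoded by the Dnaj genes, bring them their substrates and start the ATP step, and nucleotide exchange factors such as the HSP110 proteins reset them. HSP90 acts on late folding steps of kinases and hormone receptors, HSP60 with its lid HSP10 folds proteins inside mitochondria, and the CCT ring folds actin and tubulin. Small heat shock proteins hold unfolding proteins without using ATP, and several of them, Cryab among them, are abundant in heart and skeletal muscle, where they bind desmin, titin and other parts of the sarcomere. Heat shock factors switch on many of these genes through heat shock elements, repeats of the unit GAA and its inverse TTC set 2 bases apart.

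Stretches of promoter that hold such elements are shown because they hold the arrangements found, a pair of separate elements, a longer run and a single element, before genes whose levels differed widely. The sequences are the 200 bases before the RefSeq start of the gene (build GRCm38.p6, 5′ to 3′ on the gene's strand), and the capitals mark the elements. The stretch of Hspb1 lies at chr5:135887719-135887918 on the plus strand, that of Hspe1 at chr1:55087948-55088147 on the plus strand, that of Dnajb6 at chr5:29735698-29735897 on the plus strand and that of Hspa1a at chr17:34972157-34972356 on the minus strand.
Hspb1: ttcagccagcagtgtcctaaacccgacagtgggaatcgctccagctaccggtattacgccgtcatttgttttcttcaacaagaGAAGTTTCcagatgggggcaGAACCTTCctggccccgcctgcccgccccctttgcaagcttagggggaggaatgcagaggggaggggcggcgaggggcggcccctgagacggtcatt
Hspe1: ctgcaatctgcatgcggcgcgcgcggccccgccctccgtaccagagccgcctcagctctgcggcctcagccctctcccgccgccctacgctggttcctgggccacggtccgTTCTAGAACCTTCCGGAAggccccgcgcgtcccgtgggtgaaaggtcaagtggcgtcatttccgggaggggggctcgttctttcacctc
Dnajb6: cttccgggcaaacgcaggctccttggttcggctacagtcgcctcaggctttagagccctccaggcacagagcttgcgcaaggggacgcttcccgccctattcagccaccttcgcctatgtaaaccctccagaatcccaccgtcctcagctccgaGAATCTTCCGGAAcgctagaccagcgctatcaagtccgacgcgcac
Hspa1a: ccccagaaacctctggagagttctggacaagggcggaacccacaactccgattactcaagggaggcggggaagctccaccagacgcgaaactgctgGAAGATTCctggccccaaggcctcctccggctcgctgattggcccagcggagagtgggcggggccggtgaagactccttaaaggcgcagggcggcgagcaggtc
Hspb1 has a pair of separate 2-unit elements. Hspe1 has an unbroken run of alternating units, and since the promoter windows of Hspe1 and Hspd1 overlap by 285 nt on opposite strands, the same run lies before 1 of the 2 RefSeq starts of Hspd1. It lies after the other Hspd1 start, whose own window held no element. Dnajb6 has 1 element of 3 units. Hspa1a has 1 element of 2 units, and the corresponding stretch of its neighbour Hspa1b differs from it at 1 base.

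RefSeq promoter windows, from 250 bases before to 50 bases after a start, were matched for 65 of the 81 chaperone genes. A 2-unit element (GAANNTTC or TTCNNGAA, each its own reverse complement and so read on both strands) was present for 18 of the 65, or 27.7%, against 15.7% of 17492 protein-coding genes. A 3-unit element (3 alternating units with the same spacing, read on both strands, which contains both 2-unit ones) was present for 4 of the 65, namely Hspd1, Hspe1, Hsph1 and Dnajb6, or 6.15%, against 0.595% of protein-coding genes. Hspa8, Cryab and Hsp90ab1 are not among the 65. Of the 18 genes with a 2-unit element, 13 were read in both libraries and 3 had no count in either, with a median of 44.0 TPM. Of the 47 without one, 31 were read in both and 7 had no count, with a median of 15.9 TPM. Hspb7, among the most abundant of all the chaperone transcripts, had no match in its window.

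Chaperone transcripts made up about 1 percent of the RNA. They summed to 10684 TPM in replicate 1 and 8577 TPM in replicate 2, which is 1.07% and 0.858% of all TPM, or 0.963% ± 0.149 (SD, n = 2). A gene was called read at 1 TPM or more. By that rule 56 of the 81 genes (69.1%) were read in both libraries, against 28.4% of protein-coding genes. A further 6 were read only in replicate 1, 4 only in replicate 2 and 15 in neither. Their median mean level was 31.6 TPM, against 0.0156 TPM for protein-coding genes, and 24 of them (29.6%) averaged 100 TPM or more, against 5.42%. The genes that mark the set, Hspa8, Cryab and Hspb1, ranked 96, 131 and 331 of the 21474 protein-coding genes by mean TPM. Abundance was concentrated: Hspa8, Cryab, Hsp90ab1 and Hspb7 together held 42.6% of the chaperone TPM in replicate 1 and 37.7% in replicate 2.

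**Figure D1:**
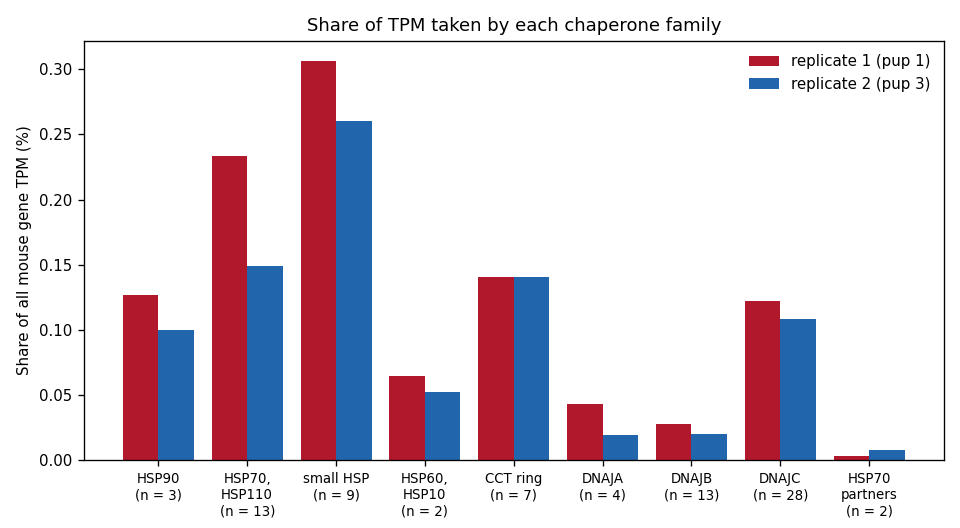
Share of the TPM of all mouse genes, in percent, taken by each chaperone family in replicate 1 (red, left) and replicate 2 (blue, right), with the number of genes in each family. Small heat shock proteins took the highest share in both libraries (0.307% and 0.260%), and the CCT ring took 0.140% in each.

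The small heat shock proteins were the most abundant family, at 3066 TPM in replicate 1 against 2599 TPM in replicate 2 from 9 genes. Cryab, which encodes alpha-B-crystallin, gave 871 TPM in replicate 1 and 1159 TPM in replicate 2 (1015 ± 204, SD, n = 2). Hspb1, the small heat shock protein that caps and guards actin filaments, gave 372 TPM and 443 TPM in the same order. Both were a little higher in replicate 2, and their ratio hardly moved: Cryab exceeded Hspb1 by 1.31 ± 0.11 on the log2 scale (SD, n = 2). Hspb7, a cardiac member needed for sarcomere upkeep in mice, gave 1075 TPM in replicate 1 and 450 TPM in replicate 2. Hspb6, a member phosphorylated by protein kinase A in muscle, gave 440 TPM and 193 TPM. Hspb8, which works with the co-chaperone Bag3 in clearing damaged filament proteins, gave 46.7 TPM and 16.6 TPM. These last 3 were each more than 2-fold higher in replicate 1, so that Hspb7 stood above Hspb1 in replicate 1 (log2 ratio 1.53) and level with it in replicate 2 (0.02). Hspb2 and Hspb3, which form a complex with each other in muscle, gave 167 TPM and 43.3 TPM in replicate 1, against 290 TPM and 46.9 TPM in replicate 2. Hspb2 thus exceeded Hspb3 by 2.27 ± 0.48 on the log2 scale (SD, n = 2). Hspb11, a part of the transport machinery of cilia despite its name, had 692 expected counts (51.4 TPM) in replicate 1 and none in replicate 2, and Hspb9, known from testis, had none in either.

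Cryab and Hspb2 are a head-to-head pair on chromosome 9 whose GENCODE starts lie 1029 nt apart and whose exons overlap on opposite strands. Cryab exceeded Hspb2 in both libraries, by 2.18 ± 0.27 on the log2 scale (SD, n = 2). Whether counting used the strand is not stated in the labels or headers, so reads in the shared stretch cannot be told apart.

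Among the HSP70 genes the constitutive form carried the family. Hspa8, which encodes the everyday cytosolic HSP70, gave 1589 TPM in replicate 1 and 962 TPM in replicate 2, or 68.0% and 64.6% of the TPM of the 13 HSP70 and HSP110 genes. Hspa5, the HSP70 of the endoplasmic reticulum known as BiP, gave 341 TPM and 225 TPM. Hspa9, the mitochondrial HSP70 known as mortalin, gave 296 TPM and 239 TPM. The proportions among these 3 compartments were alike in the libraries: Hspa8 exceeded Hspa5 by 2.15 ± 0.09 and Hspa9 by 2.21 ± 0.29 on the log2 scale (SD, n = 2 each). The stress-inducible genes Hspa1a and Hspa1b had 0 counts in both libraries, as did Hspa1l, best known from testis. Hspa1a and Hspa1b are near-identical neighbours on chromosome 17, so a read of either could be split between them, but neither received one.

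The remaining HSP70 relatives were sparse. Hspa2, the form known from male germ cells, gave 18.4 TPM in replicate 1 and 3.14 TPM in replicate 2. The exchange factors of the HSP110 class lay close together: Hspa4l gave 29.5 TPM and 25.0 TPM, Hspa4 gave 19.5 TPM and 9.67 TPM, and Hsph1 gave 12.1 TPM and 10.3 TPM. Hspa4l was the highest of the 3 in both libraries, while Hspa4 and Hsph1 changed order between them. Hspa12b, a distant relative known from endothelial cells, had 1324 expected counts (24.8 TPM) in replicate 1 and 0 in replicate 2, while Hspa13 had 1 count in replicate 1 against 831 (10.9 TPM) in replicate 2. Hspa12a was at 6.43 TPM and 4.93 TPM.

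The HSP90 genes were all read in both libraries and none was 2-fold apart. Hsp90ab1, the constitutive cytosolic form, gave 1014 TPM in replicate 1 and 662 TPM in replicate 2. Hsp90aa1, the more heat-responsive cytosolic form, gave 153 TPM and 222 TPM. The constitutive form thus exceeded the inducible one in both libraries, by 2.15 ± 0.81 on the log2 scale (SD, n = 2). The deposited effective length of Hsp90aa1 was 1668 nt in replicate 1 and 1087 nt in replicate 2, and its difference between the libraries was -0.53 in log2 TPM but 0.04 in log2 counts per 1000000. Hsp90b1, the HSP90 of the endoplasmic reticulum, gave 100 TPM and 118 TPM, below Hspa5 of the same compartment by 1.34 ± 0.59 on the log2 scale (SD, n = 2). In counts per 1000000, which do not correct for length, this was -0.86 ± 0.54 and not beyond 2 SD.

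**Figure D2:**
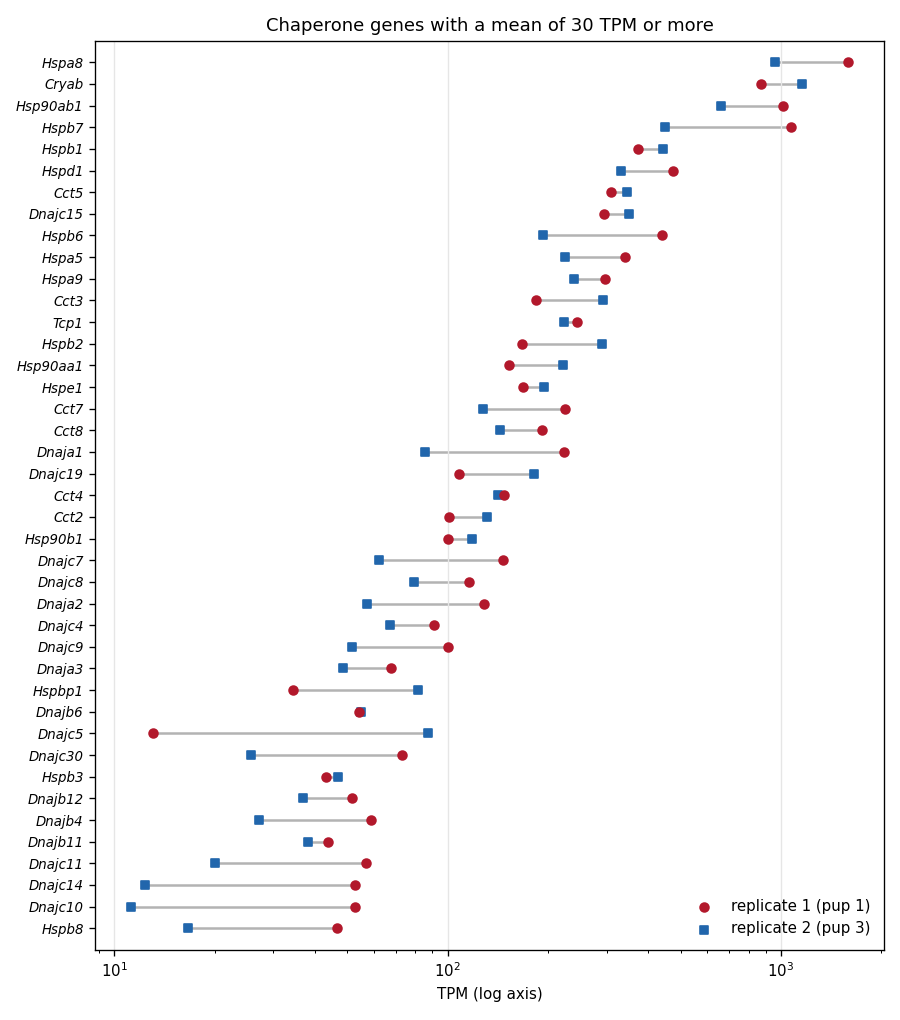
TPM on a log axis of the 41 chaperone genes that averaged at least 30 TPM, in replicate 1 (red circles) and replicate 2 (blue squares), ordered by mean. Hspa8, Cryab, Hsp90ab1 and Hspb7 stand at the top, and Dnajc5 has the widest gap (13.1 TPM in replicate 1 against 87.2 TPM in replicate 2).

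The mitochondrial chaperonin was well covered. Hspd1, which encodes HSP60, gave 475 TPM in replicate 1 against 330 TPM in replicate 2, and Hspe1, which encodes its lid HSP10, gave 169 TPM and 195 TPM. Hspd1 exceeded Hspe1 by 1.12 ± 0.52 on the log2 scale and Hspa9 lay below Hspd1 by 0.57 ± 0.15 (SD, n = 2 each). The last difference was no longer beyond 2 SD in counts per 1000000, which do not correct for length (-0.17 ± 0.23). The Hspd1 and Hspe1 genes run in opposite directions from starts 111 nt apart on chromosome 1 in GENCODE and overlap in their exons, so that the limit on strand given for Cryab holds here too.

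The subunits of the CCT ring, which occur once in each ring of the assembled complex, were not at equal levels. The 7 subunits that the rule takes summed to 1405 TPM in each library, and none of them was 2-fold apart between the libraries. Cct5 was the highest in both, at 309 TPM in replicate 1 against 345 TPM in replicate 2. Cct2 gave 101 TPM and 131 TPM, and Cct4 gave 148 TPM and 141 TPM. The order between these was less stable: Cct3 gave 185 TPM and 293 TPM, Tcp1 gave 244 TPM and 224 TPM, Cct7 gave 225 TPM and 127 TPM, and Cct8 gave 192 TPM and 143 TPM. The highest exceeded the lowest 3.05-fold in replicate 1 (Cct5 over Cct2) and 2.71-fold in replicate 2 (Cct5 over Cct7). Of the 21 pairs of subunits, 15 had the same order in both libraries, and no 2 neighbours in the order of means differed beyond 2 SD. Other sets of genes were not compared in this way. Cct6a, outside the rule, was at 121 TPM in replicate 1 against 168 TPM in replicate 2, within the range of the others. Tcp1 shares exon sequence on the opposite strand with Mrpl18, itself at 212 TPM and 240 TPM.

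**Figure D3:**
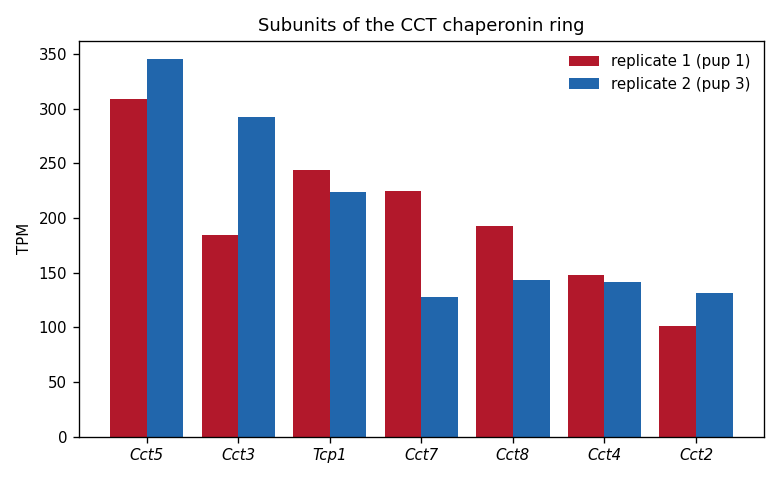
TPM of the 7 CCT ring subunits in replicate 1 (red, left) and replicate 2 (blue, right), ordered by mean. Cct5 is the highest in both libraries, at 309 and 345 TPM, while Cct3 and Cct7 differ in opposite directions.

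The J proteins, 45 genes, together gave 1932 TPM in replicate 1 against 1475 TPM in replicate 2. Of these, 28 were read in both libraries. The DNAJA class, the closest relatives of the bacterial DnaJ, summed to 433 TPM in replicate 1 and 191 TPM in replicate 2. Dnaja1 gave 223 TPM and 85.3 TPM, and Dnaja2 gave 128 TPM and 57.3 TPM, both being main cytosolic partners of HSP70. The mitochondrial Dnaja3 gave 67.7 TPM and 48.4 TPM. Dnaja4 had 1255 expected counts (13.6 TPM) in replicate 1 and none in replicate 2. All 4 were higher in replicate 1, and 3 of them more than 2-fold. Dnaja1 exceeded Dnaja2 by 0.68 ± 0.16 on the log2 scale (SD, n = 2), a direction that turned to -0.081 ± 0.030 in counts per 1000000, which do not correct for length.

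The DNAJB class was low, at 279 TPM in replicate 1 against 200 TPM in replicate 2 over 13 genes, of which 6 were read in both. Dnajb6, which keeps polyglutamine proteins from aggregating and whose mutations cause a limb-girdle muscular dystrophy in humans, was the steadiest, at 54.1 TPM and 55.1 TPM. Dnajb12, of the endoplasmic reticulum membrane, gave 51.5 TPM and 36.9 TPM, and Dnajb4 gave 58.7 TPM and 27.2 TPM. The luminal partners of Hspa5, Dnajb11 and Dnajb9, gave 43.7 TPM and 18.8 TPM in replicate 1, against 38.0 TPM and 25.3 TPM in replicate 2, with Dnajb9 the lower in both. Dnajb1, the classic heat-inducible HSP40, gave 15.0 TPM in replicate 1 against 1.03 TPM in replicate 2, and was below Dnajb4 by 2.85 ± 1.34 on the log2 scale (SD, n = 2). With a pseudocount of 0.1 this was -3.28 ± 1.86 and not beyond 2 SD. Dnajb2 and Dnajb3 had 613 and 565 expected counts in replicate 1 and none in replicate 2, whereas Dnajb5 had 2 counts in replicate 1 against 913 in replicate 2. Dnajb13, Dnajb7 and Dnajb8 had no count in either library.

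In the large and mixed DNAJC class the mitochondrial import gene Dnajc15 led in TPM in both libraries. It did not lead in expected counts, which do not correct for length. Dnajc7 had more in replicate 1 (6796 against 5236) and Dnajc5 in replicate 2 (8414 against 5254). Dnajc15, a J protein of the mitochondrial inner membrane, gave 295 TPM in replicate 1 and 349 TPM in replicate 2. Dnajc19, its relative at the same import motor, whose loss causes a dilated cardiomyopathy with ataxia in humans, gave 108 TPM and 182 TPM. Dnajc19 was the lower in both, by 1.19 ± 0.36 on the log2 scale (SD, n = 2). The only transcript listed for Dnajc15 is typed in GENCODE as nonsense-mediated decay, not as protein-coding. Its share of 100% in both libraries was thus fixed by the annotation and shows no choice between transcripts. Dnajc7, which bridges HSP70 and HSP90, gave 146 TPM and 62.1 TPM, and Dnajc8, a protein bound to splicing factors, gave 116 TPM and 79.3 TPM. Dnajc9, a histone chaperone, gave 100 TPM and 51.6 TPM, and Dnajc4 gave 91.4 TPM and 67.1 TPM. Dnajc7, Dnajc8, Dnajc9 and Dnajc4 were all higher in replicate 1, Dnajc7 by more than 2-fold. Dnajc5, the cysteine string protein of secretory vesicles, went the other way, at 13.1 TPM in replicate 1 against 87.2 TPM in replicate 2. Dnajc12 had 0 counts in replicate 1 against 1310 (40.2 TPM) in replicate 2. In all, 19 of the 28 DNAJC genes were read in both libraries, and Dnajc21, Dnajc22, Dnajc28, Dnajc5b and Dnajc5g had no count in either. Dnajc6, with 1 count in replicate 1 against 0 in replicate 2, was the other gene under 3 counts in both.

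Hspbp1, an exchange factor for HSP70, gave 34.4 TPM in replicate 1 and 81.2 TPM in replicate 2. Hspbap1, named for binding Hspb1, had 27 counts in replicate 1 and none in replicate 2.

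The libraries were compared over the 63 chaperone genes that averaged at least 5 TPM, as the log2(TPM + 1) of replicate 1 minus that of replicate 2, a scale that understates the change of low genes. On this scale 19 of the 63 (30.2%) were over 2-fold higher in replicate 1, against 26.8% of the 7711 protein-coding genes with such a mean. Another 5 (7.94%) were over 2-fold higher in replicate 2, against 27.8%. The median difference was 0.44 for the chaperone genes, against -0.01 for the protein-coding genes, and 41 were higher in replicate 1 and 22 in replicate 2. The genes thus leaned to replicate 1 mainly in that few of them were high in replicate 2. With no filter on low values the median of the chaperone genes was 0.13. Restricted to genes with 3 counts or more in both libraries, 2 genes in place of 5 were over 2-fold higher in replicate 2. In size the differences had a median of 0.66 against 1.16 for protein-coding genes, most of which are at lower levels. By level the order varied: the median size was 1.13 against 2.22 between 5 and 30 TPM, 1.08 against 0.83 between 30 and 100 TPM, 0.53 against 0.59 between 100 and 300 TPM, and 0.52 against 0.45 above that. The authors' deposited TPM intervals, which cover error within a library, did not overlap between the libraries for 59 of the 63 genes, against 92% of the protein-coding genes. In bulk RNA, fewer cells of a type and less RNA per cell cannot be told apart. The 8 cardiomyocyte markers summed to 41559 TPM in replicate 1 against 55467 TPM in replicate 2, with a median log2 difference of -0.44. Actn2 (1746 against 1395 TPM) and Nppa (6346 against 4806 TPM) were higher in replicate 1. The others were higher in replicate 2, Tnnt2 barely so (-0.07). The part of the cardiomyocyte markers in the chaperone differences was not tested.

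The spread depended on the level. Of the 24 genes that averaged at least 100 TPM, 20 (83.3%) lay within 2-fold, against 80.7% of protein-coding genes, and the other 4 were Hspb7, Hspb6, Dnaja1 and Dnajc7, all higher in replicate 1. Between 5 and 30 TPM, 11 of 22 (50%) lay within 2-fold, against 31.2% of protein-coding genes at that level, and between 30 and 100 TPM 8 of 17 (47.1%) did, against 57.2%. Of the 24 genes apart by over 2-fold, 8 (33.3%) had fewer than 3 counts in 1 library, against 35.2% of the protein-coding genes so far apart, 5 of them in replicate 2 and 3 in replicate 1. The folds of those with a 0 are set against 3 counts in the empty library in counts per 1000000. They are lower bounds for counting error alone and do not cover RNA lost before sequencing. By that measure Hspa12b was at least 364-fold, Dnaja4 at least 345-fold, Hspb11 at least 190.4-fold, Dnajb2 at least 169-fold and Dnajb3 at least 155-fold higher in replicate 1. Dnajc12 was at least 529-fold higher in replicate 2 by the same measure. The deposited TPM intervals allow smaller folds. For Dnajb2 they reach down to 16.9 TPM in replicate 1 and up to 1.13 TPM in replicate 2. Genes near the filter were Hspa13, Dnajc1 and Hspa12a just above it, with 5.43, 5.14 and 5.68 TPM on average, and Dnajc25, at 3.87 TPM, just below.

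**Figure D4:**
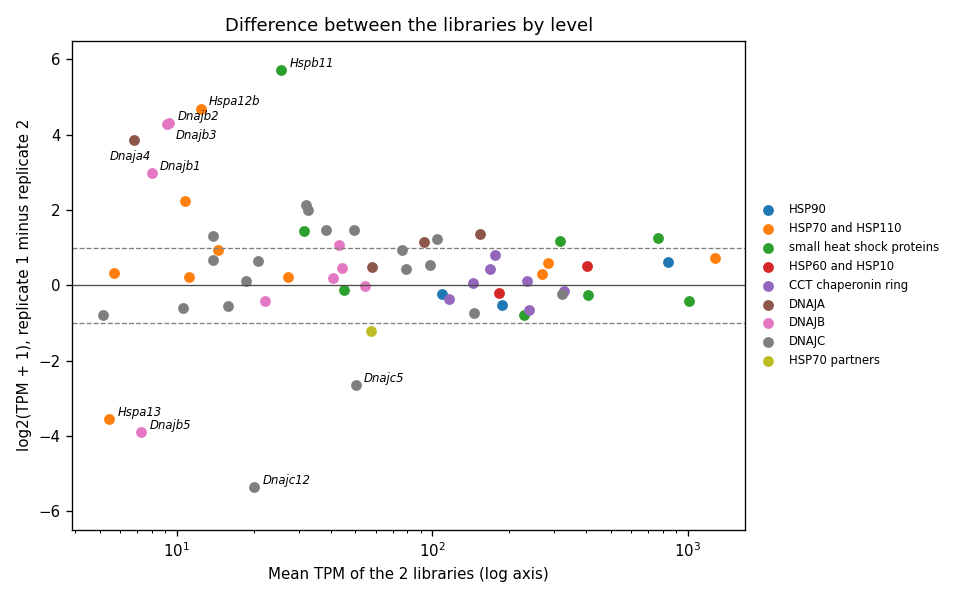
Difference between the libraries for the 63 chaperone genes that averaged at least 5 TPM, as log2(TPM + 1) of replicate 1 minus replicate 2, against the mean TPM on a log axis, coloured by family. Dashed lines mark 2-fold. Above 100 TPM 20 of 24 genes (83.3%, against 80.7% of protein-coding genes) lie between the lines, and the 10 named genes have the largest differences.

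Ratios between chaperone genes within a library set aside what both genes share. Of 23 pairs compared, 20 had the same sign in both libraries, and in 17 the mean was also above 2 SD. No such share was computed for pairs of other genes, so these counts do not set the chaperone pairs apart. These 17 include Hspa8 over Hspa1a and over Hspa1b, which were at 0, so that their direction was fixed and no fold is given. Pairs that did not meet the rule were Hspa4 with Hsph1, Hspa4 with Hspa4l, Hspb7 and Hspb6 with Hspb1, Dnajb6 with Dnajb2, and Dnajc7 with Dnajc5. The last of these had a log2 ratio of 3.39 in replicate 1 and -0.48 in replicate 2.

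**Figure D5:**
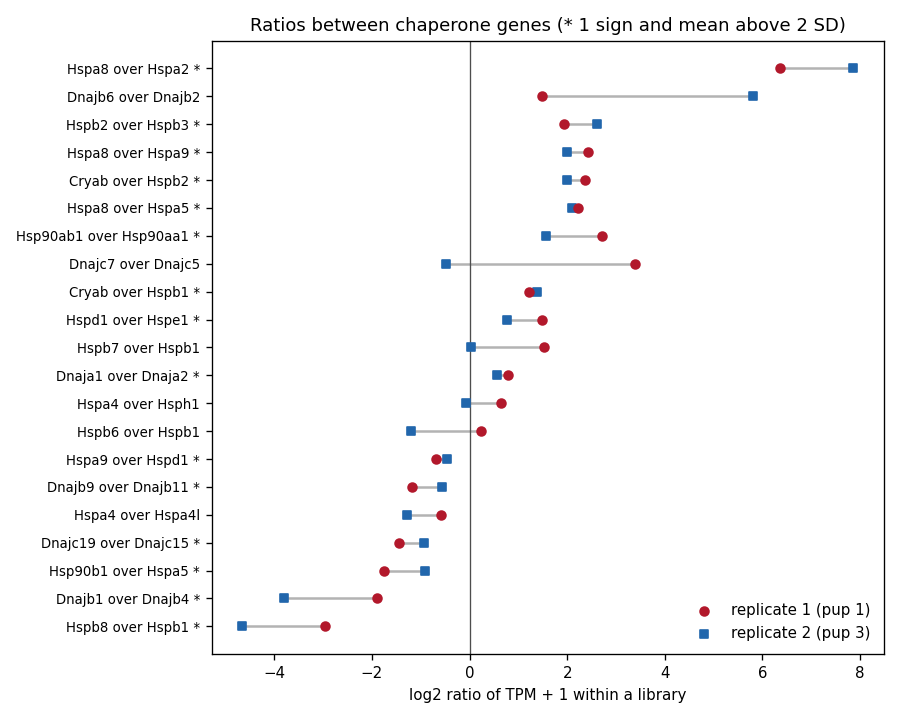
The log2 ratio of TPM + 1 between 2 chaperone genes within replicate 1 (red circles) and replicate 2 (blue squares), for the 21 pairs in which both genes had counts in at least 1 library. Asterisks mark pairs with 1 sign in both libraries and a mean above 2 SD, such as Hspa8 over Hspa5 (2.15 ± 0.09), and Dnajb6 over Dnajb2 and Dnajc7 over Dnajc5 have the widest gaps.

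The chaperone genes were also grouped by where or when they are known to act. Of all 81 chaperone genes 69.1% were read in both libraries, at a median of 31.6 TPM. For protein-coding genes these values were 28.4% and 0.0156 TPM. Of 12 genes known to respond to heat, 10 were read in both libraries and the other 2 were Hspa1a and Hspa1b. All 8 chaperones typical of striated muscle were read in both, at a median of 273 TPM. Of 10 genes known from testis and germ cells, 2 were read in both (Hspa2 and Hspa4l) and 7 in neither. These 7 had no count in either library, as did 14.8% of the chaperone genes and 46.8% of protein-coding genes. Among the chaperones of the endoplasmic reticulum 8 of 9 were read in both, and among those of mitochondria 9 of 10, at medians of 22.1 TPM and 112 TPM.

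Other folding genes were set beside the chaperones. Of the 5 heat shock factor genes, Hsbp1, which binds the factors, gave 273 TPM in replicate 1 and 367 TPM in replicate 2, Hsf2 gave 18.3 TPM and 1.00 TPM, and Hsf1 gave 0 TPM and 9.46 TPM. Neither factor was thus level in the libraries, and Hsf4 and Hsf5 had no count. Of the 24 co-chaperones of HSP70 and HSP90, 18 were read in both, with 6 over 2-fold higher in replicate 1 and 2 in replicate 2 among the 20 with a mean of 5 TPM. For protein-coding genes the shares were 28.4% read in both, 26.8% higher in replicate 1 and 27.8% higher in replicate 2, and these stand as the background of the lists that follow. Sgta gave 227 TPM and 107 TPM, Unc45b, the myosin chaperone of muscle, gave 259 TPM and 70.0 TPM, and Ptges3, the HSP90 partner p23, gave 127 TPM and 181 TPM. The largest difference was that of Pih1d1, at 0.06 TPM and 55.3 TPM. Bag3, the partner of Hspb8, was named after its values were seen; it gave 90.1 TPM in replicate 1 and 13.0 TPM in replicate 2, the same direction as Hspb8.

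Prefoldin, which hands actin and tubulin to the CCT ring, was read in both libraries for 5 of 6 subunits. Pfdn5 gave 481 TPM in replicate 1 and 378 TPM in replicate 2, Pfdn6 gave 121 TPM and 162 TPM, and Pfdn1 gave 74.5 TPM and 128 TPM. The exception was Pfdn4, at 0.18 TPM and 32.2 TPM. Of 20 other folding genes of the endoplasmic reticulum 14 were read in both, and among the 16 with a mean of 5 TPM 2 were over 2-fold higher in replicate 1 and 6 in replicate 2, with a median difference of -0.72 on the log2 scale, against -0.01 for protein-coding genes. The disulfide isomerases P4hb and Pdia3 gave 123 TPM and 229 TPM in replicate 1, against 256 TPM and 117 TPM in replicate 2. Sec61b gave 72.6 TPM and 155 TPM, and the stress factor Ddit3 gave 0 TPM and 12.9 TPM, the largest difference. Of 15 mitochondrial folding and protease genes 12 were read in both. Timm23, of the import pore, gave 266 TPM and 399 TPM, Trap1, the mitochondrial HSP90, gave 120 TPM and 128 TPM, and the protease subunit Clpp gave 108 TPM and 104 TPM, while Lonp1 gave 58.6 TPM and 0.02 TPM. Each of these lists held genes within 2-fold and genes far apart.

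Markers of the heart were present and those of neighbouring organs were not. All 8 cardiomyocyte, 6 fibroblast, 6 endothelial and 5 smooth muscle and pericyte markers were read in both libraries, and the 3 lung and 3 liver markers were at 0. Red cell markers summed to 5657 TPM in replicate 1 and 5564 TPM in replicate 2, macrophage markers to 166 TPM and 106 TPM, and skeletal muscle markers to 193 TPM and 102 TPM, mostly Acta1. The immediate early genes, which answer stress within minutes, summed to 112 TPM in replicate 1 against 65.8 TPM in replicate 2, and Fos was at 0 in both. Their part in the chaperone levels was not tested.

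Transcript tables were compared for 44 chaperone genes with several transcripts and a mean of 5 TPM or more, of which 37 could be read in both libraries. By share of TPM the same transcript led in 27 of them and a different one in 10. By expected counts the same one led in 30. No such share was computed over all genes, so this is not shown to be a trait of the chaperone genes. In 12 the leading transcript held 90% or more of the gene in both libraries, Hspb1 (99.96% in replicate 1 and 99.92% in replicate 2) and Hspa9 (99.8% in each) among them. Hspa8 was led by the same transcript at 52.6% and 51.2%. Hsp90aa1 was led in TPM by a protein-coding transcript of 711 nt, at 45.0% in replicate 1 and 66.3% in replicate 2. In expected counts a protein-coding transcript of 3281 nt led in both libraries. It had 3881 counts in replicate 1 and 3299 in replicate 2, against 1361 and 2466. The TPM of a gene also includes transcripts not typed as protein-coding. A transcript of 630 nt typed as a retained intron held 28.2% of the TPM of Hspa4 in replicate 1 and 62.2% in replicate 2. In expected counts, which do not correct for length, a protein-coding transcript led in both libraries. It had 1715 counts in replicate 1 and 452 in replicate 2, against 94.2 and 87.6 for the retained intron. Dnajb6, level as a gene in TPM, was led by different transcripts, one with 52.7% in replicate 1 and another with 89.2% in replicate 2. For 7 genes with 3 counts or more in both libraries the deposited effective length differed more than 1.5-fold between the libraries, so that their TPM and their counts per 1000000 gave different ratios. This too was not counted over all genes. Dnajc5 was among them, with -2.65 in log2 TPM and -1.88 in log2 counts per 1000000, and Hspa4 another, with 0.94 and 1.57.

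Many chaperone genes have near-identical pseudogenes, and reads can be split with these. Alignment found 32 pseudogene copies of 14 of the chaperone genes, at 90% identity or more over 50% or more of the copy. Together they held 81.2 TPM in replicate 1 and 78.9 TPM in replicate 2. Most of it lay on Gm8355, a copy of Hspa8 with 98.7% identity, at 49.3 TPM and 53.2 TPM. A copy of Hspb1 had 5.45 TPM and 7.76 TPM and one of Hspd1 6.79 TPM and 5.73 TPM, and no other copy averaged 5 TPM. Each of these 3 copies was below its parent gene in both libraries. Exons of 32 chaperone genes overlap those of another gene, and for 19 the other gene averaged 5 TPM or more. In 16 of these the chaperone gene had counts and such a gene lay on the opposite strand, so that part of the reads cannot be assigned without strand. Besides those named above they include Dnaja1 with Smu1, at 84.2 TPM in replicate 1 against 54.5 TPM in replicate 2, and Dnajc19 with Fxr1, at 38.3 TPM and 99.3 TPM.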

How the data were processed

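Gene and transcript tables of 2 libraries of newborn mouse heart were used. Per the file headers, the authors deposited expected counts (estimated reads, not always whole), TPM with posterior means and interval bounds, and, per transcript, the percent of its gene. Deposited notes name the mm10 assembly and GENCODE M4; no label or header names the aligner or quantifier. Depth was 40648700 expected counts in replicate 1 and 33173400 in replicate 2; floors cover counting error only.

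TPM was rescaled to 1000000 over mouse genes, spike-ins left out. Gene annotation was taken from GENCODE M21 (42462 of 43346 genes matched by identifier), so gene models can differ from the authors'. Differences are log2(TPM + 1). The libraries are labelled as separate pups but share a donor identifier, so their spread may be partly technical. The genes, lists and pairs were chosen with earlier results of these data known. Named genes are those of the pairs, up to 6 per family by mean, the 10 largest differences (mean of 5 TPM and 50 counts or more), those under 3 counts in both libraries and, in each other list, up to 3 by mean and the largest difference; others (Hspa12a, Dnajc1, Dnajc25, Bag3, overlapping genes and copies) were named after their values were seen. Promoter sequences are from RefSeq (GRCm38.p6). The planned search for protein motifs was not run. Copies were aligned with minimap2 2.31-r1302. Alternatives included edgeR 4.0.16 TMM factors and DESeq2 1.42.0 size factors on expected counts rounded to whole numbers. Calculations used Python 3.11.15, pandas 2.3.3 and R 4.3.3. The ratio was tested only in counts per 1000000, on simulated counts of well-covered genes with counting error alone. That test does not cover RNA lost before sequencing.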

Additional observations from a re-analysis of the deposited data

How the results depend on the processing

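No paired analysis was possible because the libraries form 1 group. As a share of expected counts, which do not correct for length, rather than of TPM, the chaperone genes took 1.38% in place of 0.963%, HSP90 0.187%, HSP70 and HSP110 0.310%, small heat shock proteins 0.340%, HSP60 and HSP10 0.0843%, the CCT ring 0.221%, DNAJA 0.0541%, DNAJB 0.0407% and DNAJC 0.140%. With no filter on low values the median difference was 0.13 in place of 0.44. Restricting to genes with 3 counts or more in both libraries, an alternative chosen after seeing the data, left 2 genes over 2-fold higher in replicate 2 in place of 5, and 14 in place of 19 higher in replicate 1. In counts per 1000000 Dnaja1 over Dnaja2 turned to -0.081. The ratio of Dnajb1 to Dnajb4 was no longer beyond 2 SD with a pseudocount of 0.1, nor were Hsp90b1 over Hspa5 and Hspa9 over Hspd1 in counts per 1000000, where Hspb7 over Hspb1 passed (2.51). Of 250 values of named genes under alternatives, 244 stayed on their side of 2-fold, none over 2-fold apart changed direction, and the 6 others belong to Hspa4 and Dnajc9. Adding Cct6a to the ring was also chosen after seeing the data. With 1 library left out, the DNAJA share ranged between 0.0191% and 0.0433%, against 0.0312% over both, and that of the HSP70 partners between 0.00346% and 0.00812%, against 0.00579%. Adding copies, posterior means, TMM and size factors moved no share by more than the SD of the libraries and no count by over 1.5 times.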
